A study of Mus musculus with 12 samples.

Results

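The genes described here are 9 genes of the gastric surface mucous cell: Gkn1, Gkn2, Gkn3, Muc5ac, Muc1, Tff1, Ctse, Psca and Anxa10. They were chosen by name as known products of this cell, with earlier results of these data known, and 8 of the 9 were read by at least 1 probe set, out of 11807 genes on the array. Gkn3 had no probe set that named it and is not analysed here. Transcript levels were read from total RNA of stomach and colon of C57BL/6 mice aged 16 weeks on Affymetrix HT Mouse Genome 430 arrays, chips that read a transcript through several short probes. Spdef encodes an ETS family transcription factor, and the mice carried it intact (wild type, WT), lacked 1 copy (heterozygous, HET) or lacked both (knockout, KO). Each of the 6 groups of tissue and genotype had 2 arrays. No treatment was given. The labels describe no further allele and state neither the sex of the mice nor whether the arrays of a group came from separate animals. The p-values therefore measure only the spread between these samples, and the number of arrays limits the precision.

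Surface mucous cells, also called pit or foveolar cells, cover the luminal face of the glandular stomach and its pits. They secrete the gel that shields the epithelium from acid and proteases, in which the mucin Muc5ac is the main polymer and the trefoil peptide Tff1 and the gastrokines are packaged with it. Spdef is known for its part in the maturation of mucus-secreting cells, in particular intestinal goblet cells and mucous cells of the antral glands. In bulk tissue, fewer cells of a type and less RNA per cell cannot be told apart.

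The genes lie at several places in the mouse genome (RefSeq annotation of GRCm38.p6). Gkn1, Gkn2 and Gkn3 are neighbours on chromosome 6, with no other protein-coding gene between them. Muc5ac on chromosome 7 stands between Muc2 and Muc5b, and Tff1 on chromosome 17 follows Tff3 and Tff2. Muc1 is on chromosome 3, Ctse on chromosome 1, Psca on chromosome 15 and Anxa10 on chromosome 8. RefSeq promoter windows were matched for 5 of the 9 genes, and those of the 4 measured genes among them are shown because these genes were high in the same tissue in every array. Each line gives the 250 bases before the start of the gene, 5′ to 3′ on the strand of the gene. These are chr6:87350916-87351165 on the minus strand for Gkn1, chr6:87373115-87373364 on the plus strand for Gkn2, chr3:89228806-89229055 on the plus strand for Muc1 and chr8:62123194-62123443 on the minus strand for Anxa10. Both strands were searched for TATAAA, the letters of the basal promoter box, for AGATAA, bound by gastric zinc finger factors of the Gata family, for TGTTTNC, bound by forkhead proteins, and for GGATGT, a core preferred by SPDEF. Capitals mark the matches, and no matches of different motifs overlapped.
Gkn1: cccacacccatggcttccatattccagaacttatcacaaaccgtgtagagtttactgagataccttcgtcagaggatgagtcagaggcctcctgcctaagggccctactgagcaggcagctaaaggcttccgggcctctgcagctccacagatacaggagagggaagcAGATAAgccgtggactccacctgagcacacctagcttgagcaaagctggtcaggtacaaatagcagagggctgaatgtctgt
Gkn2: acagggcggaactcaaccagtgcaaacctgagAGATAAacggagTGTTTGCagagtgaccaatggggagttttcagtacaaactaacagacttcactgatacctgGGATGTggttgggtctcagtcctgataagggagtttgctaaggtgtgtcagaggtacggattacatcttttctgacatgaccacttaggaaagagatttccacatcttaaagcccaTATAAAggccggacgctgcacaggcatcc
Muc1: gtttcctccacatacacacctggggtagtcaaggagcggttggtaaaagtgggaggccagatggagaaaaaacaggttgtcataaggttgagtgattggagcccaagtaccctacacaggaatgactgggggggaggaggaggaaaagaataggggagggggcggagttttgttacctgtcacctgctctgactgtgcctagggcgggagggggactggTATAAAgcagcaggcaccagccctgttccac
Anxa10: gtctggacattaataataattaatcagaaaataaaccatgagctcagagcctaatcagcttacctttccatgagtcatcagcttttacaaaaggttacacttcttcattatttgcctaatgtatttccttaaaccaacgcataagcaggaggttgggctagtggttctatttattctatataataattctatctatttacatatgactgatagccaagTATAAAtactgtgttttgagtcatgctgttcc

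The TATA box letters lay 29 to 24 bases before the start in Gkn2, 31 to 26 bases before it in Muc1 and 32 to 27 bases before it in Anxa10. Gkn1 had a GATA match 82 to 77 bases before its start, and Gkn2 had one 218 to 213 bases before its start. The SPDEF letters were in the Gkn2 window alone of the 5, at 145 to 140 bases before the start, and the forkhead letters were in those of Gkn2 and Gkn3. Over all 32841 windows of this length, 12.4% held the TATA letters, 9.99% the GATA letters, 17.8% the forkhead letters and 9.46% the SPDEF letters. A match describes the letters and is not a shown binding site.

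Levels are given as log2(intensity + 16), quantile normalized over the 12 arrays, so differences of dim genes are understated. A level of 6.53, the 40th percentile, served as the filter on dim genes, and testing a gene in a tissue required that at least 2 of the 6 arrays reached it. All 8 measured genes passed in stomach and 4 passed in colon, namely Psca, Ctse, Tff1 and Muc1. The tissue labels were checked against markers of other cells. Of 8 parietal cell markers, all 8 were above the filter level in each stomach array, and of 6 chief cell markers 5 were. In colon, 6 of 6 measured absorptive colonocyte markers were above it in every array except colon WT 2, where 4 were. That array stood apart: it correlated with the remaining colon arrays at 0.888 on average, while those had averages of 0.931 to 0.956, its mean level of 8 small intestine markers was 12.49 against 6.38 to 7.46, and that of absorptive colonocyte markers was 9.07 against 12.07 to 13.11. Spdef was read at 8.63 to 9.19 in stomach and 8.74 to 10.97 in colon, with signal in the KO arrays of both tissues. Whether its probes fall inside the deleted region is not given, so they do not check the genotype labels.

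The surface mucous genes were high in stomach whatever the Spdef genotype. Gkn1, a secreted gastrokine with a BRICHOS domain, was read at 14.02 and 13.93 in stomach WT, 14.01 and 14.08 in stomach HET and 13.95 and 14.05 in stomach KO. Gkn2, a gastrokine that pairs with Tff1 through a disulfide bond, was read at 14.25 and 14.25 in WT, 14.08 and 14.32 in HET and 14.27 and 14.27 in KO. The 3 genotypes overlapped for Gkn1, and for Gkn2 the HET arrays lay on both sides of all the others. Muc5ac, the gel-forming mucin of these cells, was read at 13.72 and 13.82 in WT, 13.93 and 13.82 in HET and 13.88 and 13.85 in KO. Tff1, the trefoil peptide secreted with it, was read at 14.13 and 14.10 in WT, 13.88 and 14.16 in HET and 14.02 and 14.16 in KO. The Muc5ac KO arrays lay above both WT arrays by less than 0.2. Its HET arrays also lay above both WT arrays, HET 2 only just. The Tff1 groups overlapped. Muc1, a mucin anchored in the apical membrane, was read at 12.01 and 12.14 in WT, 12.02 and 11.84 in HET and 11.54 and 12.001 in KO. Both KO arrays of Muc1 were below both WT arrays, KO 2 only just.

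The other genes of the group are not mucus components. Ctse, the intracellular aspartic protease cathepsin E, was read at 14.08 and 14.16 in WT, 14.27 and 14.13 in HET and 14.08 and 14.19 in KO. Psca, a small surface protein held by a lipid anchor, was read at 13.90 and 13.91 in WT, 13.76 and 13.92 in HET and 13.90 and 13.81 in KO. Anxa10, a phospholipid-binding annexin, was read at 13.77 and 13.77 in WT, 13.64 and 13.74 in HET and 13.71 and 13.74 in KO. The groups overlapped for Ctse and Psca, while all 4 HET and KO arrays of Anxa10 lay slightly below the WT arrays. Before quantile normalization, however, stomach HET 2 was above stomach WT 2 for Anxa10, at intensities of 15790 and 15465. A second probe set of Anxa10 gave 11.15 and 11.29 in WT, 10.97 and 10.80 in HET and 11.18 and 11.22 in KO, with the HET arrays lowest and the KO arrays between those of WT.

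**Figure D1:**
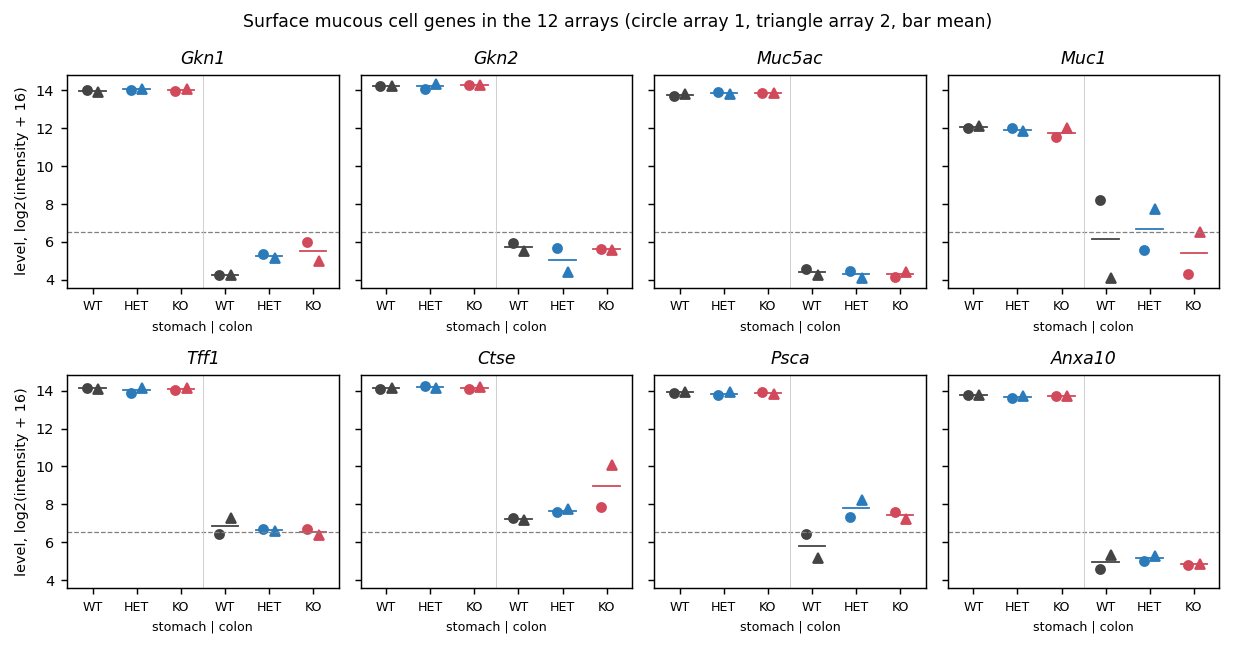
Levels of the 8 measured genes, log2(intensity + 16) after quantile normalization, in each of the 12 arrays by tissue and Spdef genotype; the circle is array 1, the triangle array 2, the short bar their mean and the dashed line the filter level of 6.53. Every stomach value lies between 11.54 and 14.32, and the highest colon value is 10.06, for Ctse in colon KO 2.

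None of the 8 genes was called in any comparison of genotypes in stomach (limma, adjusted p under 0.05). For KO against WT this was 0 of 8, where 0.0127% of the 7858 genes tested were called; for HET against WT it was 0 of 8, where 0% were called; and for KO against HET it was 0 of 8, where 0.0127% were called. At an unadjusted p under 0.05 the count was also 0 of 8 in each, against 280, 173 and 146 genes of the whole table. These comparisons share arrays, the WT arrays for KO and HET and the KO arrays for WT and HET, so they are not independent. Both stomach KO arrays also carry a processing note (RMA) that the other stomach arrays do not, and this note and the KO genotype cannot be told apart. The deposited values of all 12 arrays were linear, with trimmed means between 500.07 and 500.09.

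The differences were small in both directions. KO minus WT was 0.03 for Gkn1, 0.02 for Gkn2, 0.09 for Muc5ac, -0.03 for Tff1, 0.02 for Ctse, -0.05 for Psca, -0.04 for Anxa10 and -0.31 for Muc1. Their median was -0.01, beside 0.01 over all genes tested. HET minus WT ran from -0.15 for Muc1 to 0.11 for Muc5ac with a median of -0.06, beside -0.01 over all genes, and KO minus HET ran from -0.16 for Muc1 to 0.07 for Tff1 with a median of 0.00, beside 0.01. Of the 8 genes, 4 were higher in KO than in WT, 3 higher in HET than in WT and 4 higher in KO than in HET.

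How large a difference these arrays leave room for depends on the spread used. With all 12 arrays in the fit, the spread of a gene includes its values in colon, where most of these genes were dim and variable. The 95% interval of KO minus WT was then -0.58 to 0.64 for Gkn1, -0.33 to 0.51 for Muc5ac, -1.17 to 1.21 for Ctse and -3.03 to 2.41 for Muc1. With the 6 stomach arrays fitted alone it was -0.16 to 0.22 for Gkn1, -0.19 to 0.22 for Gkn2, -0.10 to 0.29 for Muc5ac and -0.26 to 0.21 for Tff1. For the other 4 it was -0.18 to 0.21 for Ctse, -0.25 to 0.15 for Psca, -0.23 to 0.14 for Anxa10 and -0.66 to 0.04 for Muc1. As ratios of KO to WT, the intervals of the stomach fit ran from 0.933 to 1.22 for Muc5ac, from 0.892 to 1.16 for Gkn1 and from 0.635 to 1.03 for Muc1. Adjusted p was 0.670 to 0.980 in the stomach fit for KO against WT. A p above the threshold does not show that the genotypes were equal, and the intervals give the sizes the data leave possible.

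**Figure D2:**
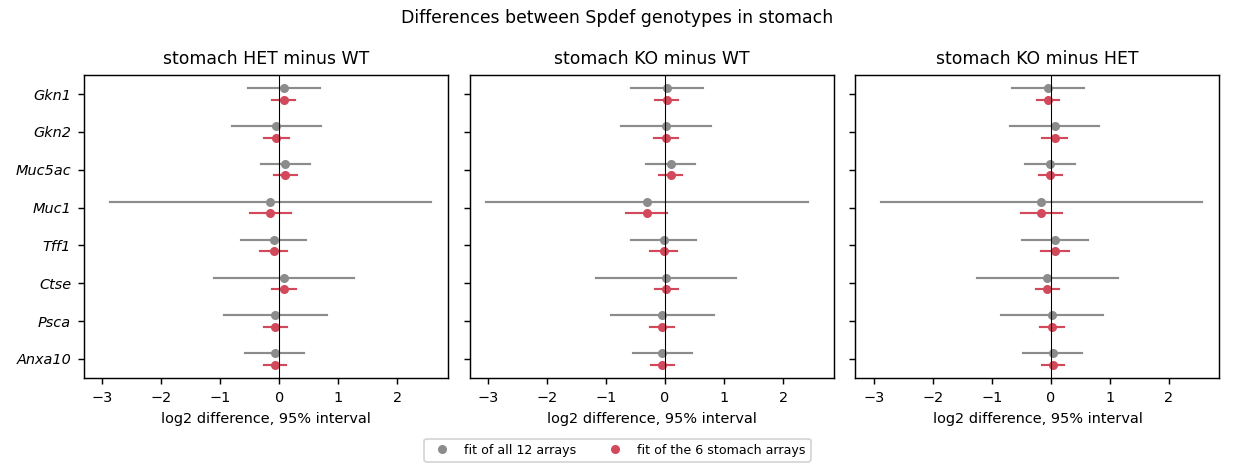
Differences between Spdef genotypes in stomach, in log2 units, with 95% intervals from the fit of all 12 arrays (grey) and from the fit of the 6 stomach arrays alone (red), 2 arrays per group. Every interval of both fits spans 0; Muc1 has the widest, -3.03 to 2.41 for KO minus WT in the fit of all arrays and -0.66 to 0.04 in the stomach fit.

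Across the 6 stomach arrays the genes varied little. The range from the lowest to the highest array was 0.13 for Anxa10, 0.16 for Gkn1 and Psca, 0.18 for Ctse, 0.21 for Muc5ac, 0.24 for Gkn2, 0.27 for Tff1 and 0.60 for Muc1. The median range was 0.48 over the 7858 genes tested and 0.24 over the 180 genes with a mean stomach level of 13 or more, which include all of the 8 except Muc1. These genes lie at the top of the measured scale, where quantile normalization sets the brightest values of all arrays equal, so a change shared by the brightest probe sets cannot show in these levels.

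The deposited intensities, before that step, differed in 1 array. Gkn1 was at 14235 in stomach HET 1 and at 17056 to 20588 in the other 5 stomach arrays, and Gkn2 was at 14778 against 20685 to 26408. Stomach HET 1 was below all the other stomach arrays for 7 of the 8 genes, at 0.634 (Tff1) to 0.836 (Muc5ac) of their mean. Muc1 was the exception, at a ratio of 1.02. The mean of the 100 brightest probe sets was lower in the same array, at 12975 against 15847 to 17845, a ratio of 0.772. Without the normalization, HET minus WT was negative for 8 of 8 genes, from -0.26 for Psca to -0.07 for Muc5ac, and KO minus WT was negative for 7 of 8, from -0.34 for Muc1 to -0.07 for Ctse. Muc5ac was the exception, at 0.01. None was called there either.

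Markers of other cell types also differed between the stomach arrays. The mean level of 10 measured squamous forestomach markers was 6.79 and 7.32 in WT, 8.35 and 5.94 in HET and 4.92 and 4.98 in KO. Of these 10, the number above the filter level was 4 and 6 in WT, 7 and 3 in HET and 0 in both KO arrays. Markers of neck and antral gland mucous cells, 4 measured of 6, had means of 10.23 and 10.51 in WT, 10.45 and 10.90 in HET and 11.01 and 11.13 in KO. The number of these above the filter level was 3 and 4 in WT and 3 in every HET and KO array. Means of B and plasma cell markers were 5.53 and 7.68 in WT, 7.60 and 5.95 in HET and 5.76 and 5.70 in KO. Goblet markers ranged from 7.87 to 9.33, parietal markers from 11.12 to 11.55 and chief markers from 11.38 to 11.68 over the 6 arrays. The part of these shifts in the values of the surface mucous genes was not tested.

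Between tissues, each of the 8 genes was higher in all 6 stomach arrays than in all 6 colon arrays. The gap between the lowest stomach and the highest colon array ran from 3.30 for Muc1 and 4.02 for Ctse to 8.31 for Anxa10 and 9.15 for Muc5ac. Of the 8393 genes tested between tissues, 17.7% showed such a separation. In limma, 8 of 8 were lower in colon in WT, where 16.4% of genes were lower; 8 of 8 in HET, where 12% were; and 8 of 8 in KO, where 12.4% were. The genes are known products of the gastric cell, so the direction follows from how they were chosen. Gkn1, Gkn2, Muc5ac and Anxa10 also passed the filter through stomach alone, so for them a lower level in colon was all but fixed. These counts therefore describe the genes and carry no weight as a test, also beside the shares of all genes.

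The gastrokines, Muc5ac and Anxa10 were below the filter level in every colon array. Gkn1 was read at 4.28 to 6.01 there, Gkn2 at 4.40 to 5.93, Muc5ac at 4.11 to 4.58 and Anxa10 at 4.59 to 5.32. Values this low carry no order between genotypes, and the differences from stomach are lower bounds taken against the filter level. Gkn1 was lower in WT colon than in WT stomach by at least 7.44 (174-fold), Gkn2 by at least 7.72 (211-fold), Muc5ac by at least 7.24 (151-fold) and Anxa10 by at least 7.24 (151-fold). In HET the bounds were 7.52 for Gkn1, 7.67 for Gkn2, 7.35 for Muc5ac and 7.16 for Anxa10. In KO they were 7.47, 7.74, 7.33 and 7.19 for the same genes. The second probe set of Anxa10 was read at 4.23 to 5.42 in colon, also under the filter level throughout, and was lower there by at least 4.69 in WT, 4.36 in HET and 4.66 in KO.

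For the 4 genes with signal in colon the difference was measured on both sides in most groups. Colon minus stomach for Tff1 was -7.25 in WT, -7.37 in HET and -7.54 in KO, with an SE of 0.24. For Ctse it was -6.90 in WT, -6.53 in HET and -5.19 in KO, with an SE of 0.53. The Tff1 differences were nearly the same in each genotype. However, its colon means were near the filter level of 6.53, at 6.86 in WT, 6.65 in HET and 6.54 in KO. Its stomach levels were at the top of the measured scale, so the likeness between genotypes says little of Tff1. The Ctse differences were smallest in KO, where colon KO 2 was high. Psca was lower in colon by at least 7.37 in WT, and its difference was -6.06 in HET and -6.44 in KO, with an SE of 0.39. Muc1 was lower by at least 5.55 in WT and by at least 5.24 in KO, and its difference was -5.27 in HET, with an SE of 1.21. The Muc1 call in HET rested on few arrays: adjusted p was 0.0132 over all arrays, 0.0685 without stomach HET 1, 0.0679 without stomach HET 2 and 0.107 without colon HET 1. Without colon WT 2 the Muc1 difference in WT was -3.83 (adjusted p = 0.0131) and that of Ctse was -6.82.

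**Figure D3:**
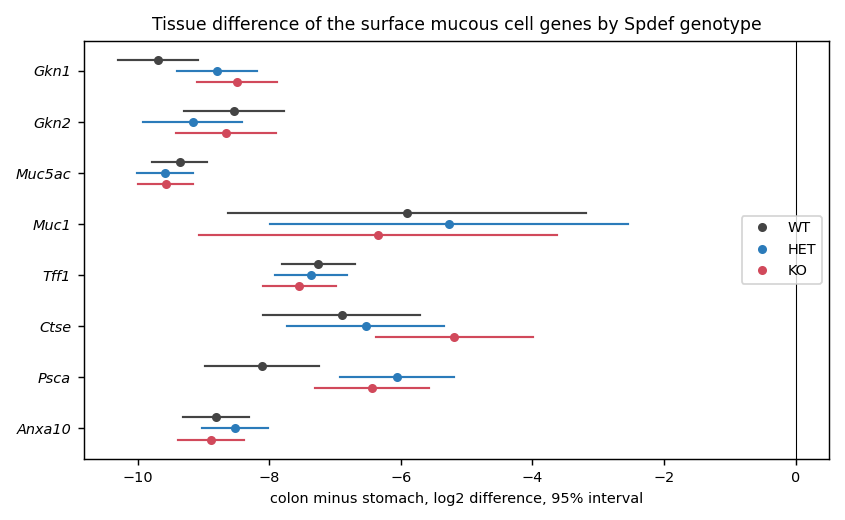
Colon minus stomach difference in log2 units for the 8 genes in WT (grey), HET (blue) and KO (red), with 95% intervals from the fit of all 12 arrays, 2 arrays per group. Every interval lies below 0; where the colon level is under the filter level the plotted point is the fitted difference, and the text gives a lower bound.

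None of the 4 genes tested in colon was called between genotypes in limma. This was 0 of 4 for KO against WT, where 0.0505% of the 7913 genes were called; 0 of 4 for HET against WT, where 0.0253% were; and 0 of 4 for KO against HET, where 0.0253% were. At an unadjusted p under 0.05 the counts were 2, 1 and 1 of 4, beside 886, 761 and 325 genes of the whole table. Here too the comparisons share arrays.

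Psca was lowest in the WT arrays of colon. It was read at 6.42 and 5.16 in WT, 7.35 and 8.21 in HET and 7.62 and 7.22 in KO. Both WT arrays were under the filter level and below all 4 arrays of the other genotypes. HET minus WT was 1.99 (SE 0.39, 95% interval 1.12 to 2.86, adjusted p = 0.338) and KO minus WT was 1.63 (SE 0.39, 95% interval 0.761 to 2.4995, adjusted p = 0.318). The lower bounds against the filter level were 1.25 and 0.89. Which WT array is used decides the call. Without colon WT 1, leaving colon WT 2 as the lone WT array, HET minus WT was 2.63 (adjusted p = 0.000791) and KO minus WT was 2.26 (adjusted p = 0.00186). In those fits 13.6% and 12.3% of all 7831 genes tested were called. Without colon WT 2, the array with high small intestine markers, they were 1.36 (adjusted p = 0.233) and 0.999 (adjusted p = 0.279), with 0.0767% and 0.307% of all genes called. In such fits the lone array is assumed to vary like the other groups.

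Ctse in colon was set apart by 1 KO array. It was read at 7.28 and 7.15 in WT, 7.59 and 7.74 in HET and 7.84 and 10.06 in KO. Both WT arrays lay below all 4 others, and colon KO 2 was above every other colon array by more than 2. KO minus WT was 1.73 (SE 0.53, 95% interval 0.54 to 2.92, adjusted p = 0.347) and KO minus HET was 1.29 (SE 0.53, adjusted p = 0.998). Without colon KO 2, KO minus WT was 0.62 (adjusted p = 0.377) and KO minus HET was 0.18. Without colon KO 1 they were 2.84 (adjusted p = 0.000275) and 2.39 (adjusted p = 0.00111), in fits that called 0.434% and 0.345% of all genes. Colon KO 2 also had the highest mean of B and plasma cell markers, 9.63 against 7.15 to 8.86 in the other colon arrays. It had 4 of 4 of them above the filter level, as did colon WT 2, the array with the lowest Ctse value. The mean of exocrine pancreas markers was highest in colon KO 2 too, 7.61 against 5.29 to 5.60, with 4 of 8 above the filter level. The part of these markers in the Ctse value was not tested.

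Tff1 was near the filter level in colon, and Muc1 was scattered widely on both sides of it. Tff1 was read at 6.44 and 7.28 in WT, 6.71 and 6.60 in HET and 6.68 and 6.40 in KO. KO minus WT was -0.32 (SE 0.24, adjusted p = 0.612) and HET minus WT was -0.21. Without colon WT 1 they were -0.74 (adjusted p = 0.0280) and -0.63 (adjusted p = 0.0458), in the fits that called 12.3% and 13.6% of all genes, and without colon WT 2 they turned to 0.10 and 0.21. The highest Tff1 value in colon was thus in the array with small intestine markers. Muc1 was read at 8.24 and 4.11 in WT, 5.57 and 7.76 in HET and 4.34 and 6.50 in KO. The arrays of 1 genotype differed by more than the genotypes, and KO minus WT was -0.75 (limma, SE 1.21, adjusted p = 0.820). The WT and KO means, 6.17 and 5.42, were both under the filter level, so the size of this difference was not measured.

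**Figure D4:**
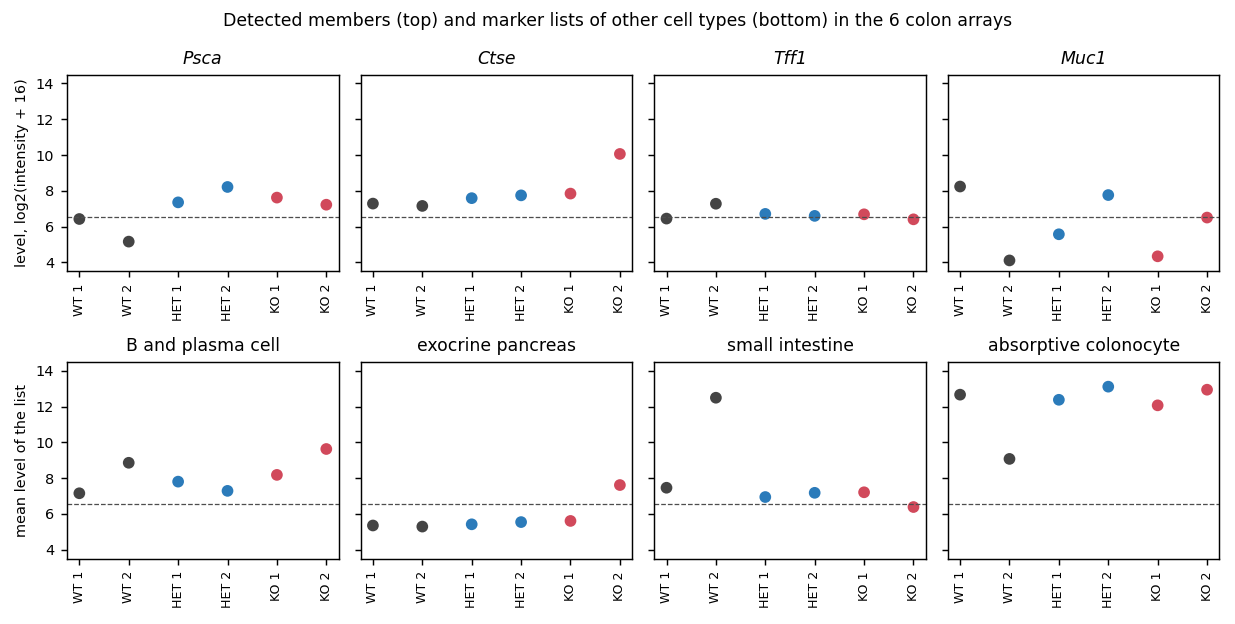
The 4 genes with signal in colon (top) and the mean level of 4 marker lists (bottom) in the 6 colon arrays, log2(intensity + 16), with the filter level of 6.53 dashed. Psca is lowest in the WT arrays, Ctse is highest in KO 2 at 10.06, where B and plasma cell and exocrine pancreas markers are also highest, and WT 2 stands apart in small intestine markers at 12.49.

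The KO effect was compared between tissues as KO minus WT in stomach less KO minus WT in colon. Gkn1, Gkn2, Muc5ac and Anxa10 were under the filter level in every colon array, so this comparison says nothing of them. Of the 4 genes tested in colon, 0 were called in limma, where 0.0238% of the 8393 genes were, and 2 had an unadjusted p under 0.05, beside 389 genes of the whole table. The difference was -1.71 for Ctse (SE 0.75, adjusted p = 0.888), -1.68 for Psca (SE 0.55, adjusted p = 0.888) and 0.29 for Tff1 (SE 0.35, adjusted p = 0.901). The Psca value includes a WT mean in colon under the filter level, and for Muc1 both colon means were under it. The Psca difference was -2.31 (adjusted p = 0.0121) without colon WT 1, where 4.68% of all genes were called, and the Ctse difference was -2.82 (adjusted p = 0.00246) without colon KO 1, where 0.0359% were.

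Further genes of the surface mucous or foveolar cell, taken from a list of 14, behaved less uniformly between tissues. For WT, 11 could be compared between tissues: 6 were lower in colon, 1 was higher and 4 were not called, with a median of -1.42 beside -0.08 over all genes tested. Of all genes, 16.4% were lower and 10.9% higher in WT colon. Cldn18, the claudin that seals the gastric epithelium, was lower by at least 5.78, the transcription factor Foxq1 by at least 3.73 and the iodide transporter Slc5a5 by at least 2.43. The synaptotagmin-like protein gene Sytl2 differed by -1.79 (SE 0.34) and the calpain gene Capn8 by -1.42 (SE 0.24). Krt20, a keratin of surface cells in both stomach and intestine, was higher in colon by 2.12 (SE 0.33). In HET 5 were lower, where 12% of all genes were, and 2 were higher, where 10.3% were. In KO 6 were lower, where 12.4% of all genes were, and 1 was higher, where 10.5% were. In stomach, 0 of 10 were called in each comparison of genotypes, where at most 0.0127% of all genes were. The largest KO minus WT differences in stomach were -0.49 for Krt20 and 0.48 for Foxq1.

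Mucins and trefoil factors that are not surface mucous products differed between the tissues in both directions. Of 5 tested between the WT tissues, 1 was not called (Muc4) and 3 were higher in colon, where 10.9% of all genes were: the membrane mucins Muc3 (at least 7.22) and Muc13 (at least 6.75), and Tff3 (7.20, SE 0.22), the trefoil peptide of goblet cells. Tff2, the trefoil peptide of gastric neck and antral gland cells, was lower in colon by at least 7.15. In stomach, 3 were tested and 0 were called in each comparison of genotypes, where at most 0.0127% of all genes were. KO minus WT in stomach was 0.25 for Tff3 and 0.06 for Tff2. In colon, 0 of 5 were called in each, where at most 0.0505% of all genes were.

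Enzymes that build mucin O-glycans, 17 measured of 22, differed less. Between the WT tissues 5 of 17 were higher in colon, 1 was lower and 11 were not called, with a median of 0.02, beside 10.9% of all genes higher and 16.4% lower. The higher ones were the initiating transferases Galnt6 (2.17, SE 0.27) and Galnt10 (1.36, SE 0.19) and the sialyltransferases St3gal4 (at least 2.32), St6galnac1 (at least 1.40) and St3gal1 (at least 0.75), and Galnt2 was lower, at -1.14 (SE 0.18). In stomach 0 of 13 were called in each comparison of genotypes, where at most 0.0127% of all genes were. KO minus WT in stomach was 0.45 for Galnt2 and -0.44 for Galnt6.

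Regulators of the gastric epithelium, 15 tested of 19 listed with the targeted Spdef among them, were called in both directions. In WT, 5 of 15 were lower in colon, where 16.4% of all genes were, among them Gata4 (at least 3.94), Sox2 (at least 1.53) and Foxa2 (-2.92, SE 0.48), factors of foregut and gastric epithelium. Another 4 were higher in colon, where 10.9% of all genes were, among them Hnf4g (at least 3.27), Hnf4a (1.60, SE 0.21) and Klf5 (1.45, SE 0.16). Within stomach, 1 of 14 was called for KO against WT and for KO against HET, beside 0.0127% of the 7858 genes tested in each. The list was chosen with earlier results of these data known, so this count says nothing of regulators as a group. The same gene was called both times, and no other gene of all those tested was: Creb3l4, an endoplasmic reticulum-bound transcription factor. It was lower by at least 2.10 (limma, adjusted p = 0.0284) and at least 2.01 (limma, adjusted p = 0.0366). Its direction held in all 21 alternatives of each comparison, but the call was lost in 11 of 21 for KO against WT and in 13 of 21 for KO against HET, with adjusted p up to 0.276 and 0.325. Among these were the replicate block (0.0952 and 0.119), the values without quantile normalization (0.0574 and 0.0647) and an offset of 64 (0.0784 and 0.106). Leaving out any 1 array of stomach WT, stomach KO, colon HET or colon KO ended both calls, and leaving out stomach HET 1 ended the one against HET. In those same stomach KO arrays the surface mucous genes differed from WT by the amounts given above, -0.31 to 0.09. In colon 1 of 13 regulators was lower in KO than in WT, again Creb3l4, by at least 2.08 (limma, adjusted p = 0.0463). Against HET 1 of 13 was lower in colon KO, and for HET against WT 0 of 13 were called. Of all 7913 genes tested in colon, 0.0505%, 0.0253% and 0.0253% were called in these comparisons. Only the stomach calls of Creb3l4 were followed over the alternatives.

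**Figure D5:**
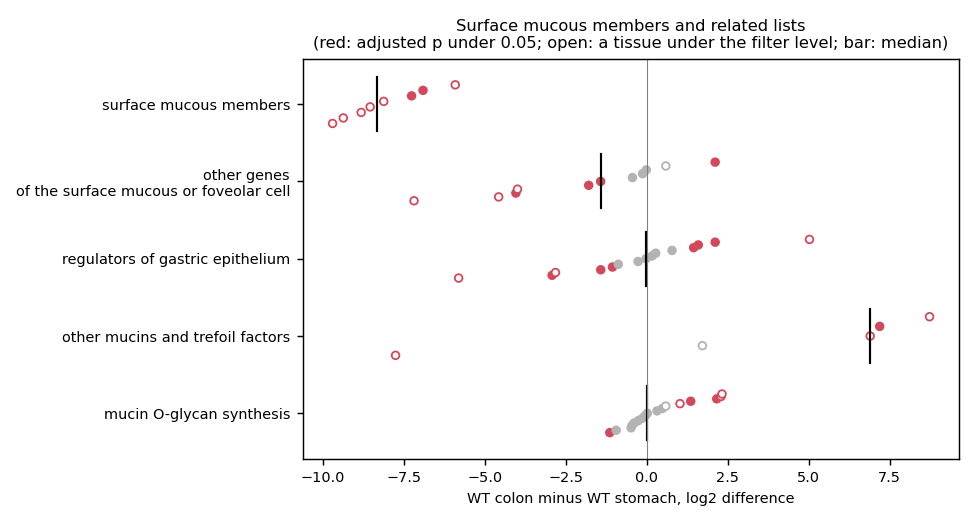
WT colon minus WT stomach difference, in log2 units, for each tested gene of the 8 surface mucous genes and 4 related lists; red points have an adjusted p under 0.05 and the black bar is the median of the list. Open points have 1 tissue or both under the filter level, so that their plotted size is the fitted one; with these at their bounds the surface mucous genes lie between -7.72 and -5.55 with a median of -7.25, and the medians of the related lists are -1.42, -0.02, 6.75 and 0.02 from top to bottom.

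The genes whose pattern was most like that of the surface mucous genes were found from the mean of their standardized levels, as a description with no test. Over the 6 stomach arrays that mean was 0.00 and 0.15 in WT, -0.46 and 0.41 in HET and -0.39 and 0.27 in KO, so that the arrays of 1 genotype differed more than the genotypes. The 10 genes closest to it over these 6 arrays (Pearson's r 0.957 to 0.997) were Cdv3, Kif3c, Bmp7, Lrrc14, Hspg2, Plet1, Jak1, Hspb2, 1810055G02Rik and Ehbp1l1. Over all 12 arrays, where the 2 tissues form separate clusters and set the correlation, the 10 closest (r 0.996 to 0.999) were Bckdhb, Acadsb, Fabp3, Hamp2, Pgc, Bpifb1, Chia1, Fabp5, Cnn3 and Aldh3a1.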

How the data were processed

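Arrays of 12 samples were analysed, 2 in each of 6 groups taken from the sample titles. The deposited values are linear intensities per probe set, credited to MAS5 or RMA by the submitters' processing notes, which give no version. The notes name RMA on 3 arrays (both stomach KO arrays and colon WT 1) and MAS5 on 9. The values of all 12 arrays, these 3 included, are linear with trimmed means between 500.07 and 500.09. In stomach the RMA note and the KO genotype cannot be told apart. Of 22626 probe sets, 18003 named 1 gene and gave 11807 genes, each represented by its brightest probe set. Values were taken as log2(intensity + 16) and quantile normalized. A gene was tested when 2 arrays of a tissue reached the 40th percentile, 6.53 (an intensity of 76.5). A mean per group was fitted over all arrays in R 4.3.3 with limma 3.58.1, using an intensity trend, with Benjamini-Hochberg adjustment over all genes tested and a threshold of 0.05. The script was tested on simulated data. Named genes were the 9 genes, Spdef, and of each list up to 6 called genes and the 2 with the largest differences, plus the 10 genes most alike. The genes and lists were chosen with earlier results of these data known. Alternatives were the values without quantile normalization, an offset of 1 or of 64, a filter at the median or none, no trend, each tissue alone, every probe set, a replicate block and each array left out. Plots used matplotlib 3.10.9 under Python 3.11.15.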

Additional observations from a re-analysis of the deposited data

How the results depend on the processing

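Of 206 counts of called genes recomputed under the alternatives, 200 were unchanged or within 1.5 times, and the other 6 came from leaving out 1 colon array. Over the leave-outs the count for colon KO against WT ran from 0 to 2, for colon HET against WT from 0 to 2, for colon KO against HET from 0 to 1 and for the KO effect between tissues from 0 to 1. Over the same leave-outs of a colon array, the share of all genes called ran up to 12.3%, 13.6%, 0.345% and 4.68%. With the replicate block the count was 0 in each comparison of genotypes, 8 in each comparison of tissues and 0 for the KO effect between tissues, as without it. Same-numbered arrays deviated together between colon HET and colon KO (r 0.29). For the other pairs of groups they did not, with r from -0.32 (stomach WT and HET) to 0.077 (stomach KO and colon KO). No label ties the numbers to animals. The Muc1 tissue difference in HET also lost its call with an offset of 1 (adjusted p = 0.0751).

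Of the single differences, 1338 kept direction and call, 8 gained a call, 4 lost it and 37 changed sign, none of the last called with either sign. Without quantile normalization, KO minus WT in stomach turned to -0.073 for Ctse, -0.12 for Gkn2 and -0.082 for Gkn1, HET minus WT to -0.15 for Ctse, -0.13 for Gkn1 and -0.074 for Muc5ac, and KO minus HET to 0.078 for Ctse, 0.045 for Gkn1 and 0.082 for Muc5ac. The cause was not tested. With each array left out, stomach KO minus WT ran from -0.034 to 0.074 for Ctse, -0.024 to 0.072 for Gkn1 and -0.093 to 0.042 for Tff1. Stomach HET minus WT ran from -0.14 to 0.016 for Psca, -0.23 to 0.043 for Tff1 and -0.16 to 0.067 for Gkn2. Stomach KO minus HET ran from -0.13 to 0.0051 for Ctse, -0.065 to 0.095 for Psca, -0.070 to 0.20 for Tff1, -0.051 to 0.18 for Gkn2, -0.021 to 0.085 for Anxa10, -0.068 to 0.045 for Muc5ac and -0.39 to 0.071 for Muc1. In colon, KO minus WT ran from -0.74 to 0.099 for Tff1 and -2.82 to 0.33 for Muc1, HET minus WT from -0.63 to 0.21 for Tff1 and -1.58 to 1.59 for Muc1, and KO minus HET from -0.79 to 0.067 for Psca and -0.25 to 0.031 for Tff1. The KO effect in stomach less that in colon ran from -0.086 to 0.33 for Gkn2, -1.61 to 2.52 for Muc1, -0.12 to 0.71 for Tff1 and -0.29 to 0.44 for Anxa10. Gkn1, Gkn2, Muc5ac and Anxa10 were not above the filter level in colon, so no difference between genotypes could be measured for them there, and their values of the KO effect between tissues rest on unmeasured colon levels.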
